A study of Sardinops sagax and Scomber japonicus with 20 samples.

Results

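The insulin-like growth factor (IGF) axis was followed in the liver of 2 marine fishes through 10 genes, chosen by symbol: IGF1, IGF2, IGF1R, GHR, IGFBP1, IGFBP2, IGFBP3, IGFBP5, IGFALS and SOCS2. The 10 genes, and the lists used further on, were chosen with earlier results of these data known. A row of a deposited table was a member when its human gene symbol equalled one of these 10. The sardine table held 9 member rows for 8 of the genes among 6716 rows, and in the mackerel table there were 9 member rows for 7 of the genes among 9191 rows. GHR and IGFBP3 had no row in the sardine table, and IGF2, IGFBP3 and SOCS2 none in the mackerel table. IGF1, IGF1R, IGFBP1, IGFBP2, IGFBP5 and IGFALS, 6 genes, were present in both, so the receptor for growth hormone was seen in mackerel alone and IGF2 in sardine alone.

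Growth hormone from the pituitary acts on the hepatocyte through its receptor GHR and the kinase JAK2, and the liver answers by secreting IGF1, the main endocrine growth signal. In blood the IGFs are carried by binding proteins, which hold them away from the receptor IGF1R or deliver them to it, and the leucine-rich protein IGFALS completes the large circulating complex known from mammals. SOCS2 is induced by the same signal and dampens the growth hormone receptor. In fishes, estrogens are known to lower liver IGF1 and to shift the IGF binding proteins, which is why this axis is of interest after exposure to an estrogen.

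Livers came from 20 adult males, 10 Pacific sardine (Sardinops sagax) and 10 chub mackerel (Scomber japonicus), bait-dock fish kept in flow-through seawater at 17 °C. In each species 5 males were unexposed controls and 5 were held for 5 h with 12.5 pM ethinylestradiol (EE2, 17α-ethynylestradiol), the synthetic estrogen of contraceptive pills. The fish were not of a defined strain, and no tank or sequencing batch is named in the labels. The labelled tissue was checked by liver markers: the fibrinogen genes FGA, FGB and FGG had rows in both tables, and fibrinogen FGG was the most abundant hepatocyte marker row in each, with a mean normalized count of 17171 in sardine and 17200 in mackerel in the authors' deposited tables. Those means pool both sides. On the sardine negative side the hepatocyte markers summed to an estimated 8794 normalized counts and the muscle markers to 10310. FGG was estimated at 6265 reads there and FGB at 2495, whereas 5 of the 16 hepatocyte rows, FGA among them, were estimated at 0. Of these, an APOB row and a pair for TTR are predicted zebrafish records, a type that mostly had no negative-side read at the members' depths. Liver markers were thus abundant on that side, but beside muscle markers at a like level, so the check does not hold for it as liver alone.

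Both tables were results of a DESeq2 comparison of the 2 groups, and neither records which group is the numerator. Values are therefore given as higher on the positive side or the negative side of the comparison, and no change is assigned to exposure. Values per fish were not at hand, but the mean normalized counts lay on a grid from which whole read numbers were recovered. In mackerel each row came down to 1 read number per side. In sardine it came down to 5 numbers on the positive side, one for each of 5 libraries, and 1 number on the negative side. Whether that single number stands for 1 fish, a pool or a repeated column is not given in the sources used here, so a sardine ratio, or a library above the negative side, is read against 1 number and not against 5 fish. When that single number stood in all 5 negative-side libraries of a negative binomial fit, the deposited fold changes of 195 rows with enough reads were met within 0.0344 log2 units. In fits with 4 or 6 negative-side libraries instead, all holding that number, the smallest difference was 0.278 and 0.256. Rows of this check with a mean above 5 had reads chosen within 0.2 log2 units of the deposited fold change. For them part of that closeness was fixed beforehand, whereas rows with a mean up to 5 were solved without the fold change. The deposited standard errors (SE) therefore hold no spread between fish on the sardine negative side and on neither side of mackerel, where all 358 read pairs shared by at least 2 rows had 1 fold change and 1 SE. The deposited SE was below the counting error of the reads alone in 2410 of 2593 solved sardine rows with reads on both sides. In mackerel, whose means hold a constant of 1.66 that the counting error leaves out, it was below in 5156 of 5501 such rows. For this reason each deposited value is set beside an exact two-sided binomial test of the recovered reads, adjusted over all rows with recovered reads by the Benjamini-Hochberg method. That test compares totals of reads and not fish, so none of its p-values carries the spread between fish, and its intervals cover counting error only.

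The sardine comparison asked which members differ between control and exposed fish. The IGF-binding proteins and IGFALS lay on the positive side and IGF2 on the negative side. At an adjusted p under 0.05, 6 of 9 member rows were called in the authors' deposited table, beside 46.5% of all tested rows. Of these, 5 were positive, beside a background of 30.5%, and 1 was negative, beside 16.1%. The exact test of the reads called 3 of the 9, beside 15.9% of solved rows, and all 3 were positive, where the background was 7.97% positive and 7.92% negative. Those 3 rows were IGFALS, the better covered IGFBP1 row and IGFBP5, of which IGFALS is on a predicted record. On curated records alone, the authors' deposited table called 4 of 7 member rows, 3 positive and 1 negative. In bulk liver, fewer cells of a type and less RNA per cell cannot be told apart.

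IGFBP1, a binding protein that insulin represses in the liver and that rises in fasting or stressed fish, was the deepest sardine member. Its first row (zebrafish record NM_173283.3) had 6, 12, 12, 14 and 43 reads in positive-side libraries 1 to 5 and 4 reads on the negative side. After division by size factors the libraries stood at 4.92, 10.5, 15.5, 18.3 and 61.0 scaled reads and the negative side at 3.54. All 5 libraries were above the negative side, the closest by little, as in 15.2% of all solved sardine rows. Library 5 held 49.4% of the positive-side reads. The authors' deposited table gave a log2 fold change of 2.59 ± 0.68 (SE) with an adjusted p of 0.00135. These reads, the one set among 8 matching the mean that also lay near the deposited fold change, gave a ratio of 5.33 (exact 95% interval 2.01 to 20.0) with an exact adjusted p of 0.000964. Without library 5 the ratio was 3.18 and the exact adjusted p was 0.0801, so the call by reads rested on that library.

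A second IGFBP1 row (NM_001098257.1) is a different zebrafish transcript of the same human symbol, and whether reads were split between the pair was not tested. It had 5, 3, 1, 3 and 6 reads in libraries 1 to 5 and 0 on the negative side, where 3.54 would be expected at equal levels. All 5 libraries held reads, between 1.29 and 8.52 scaled reads each. The authors' deposited table called it, with a fold change of 6.26 ± 1.96 and an adjusted p of 0.00772, and the exact test of the reads gave an adjusted p of 0.143. A fold change against a side at 0 depends on how the software treats the 0. With the negative side set to the floor of 3 counts, the positive side was 1.47-fold higher for this row. The exact interval of its read ratio began lower, at 1.08.

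**Figure D1:**
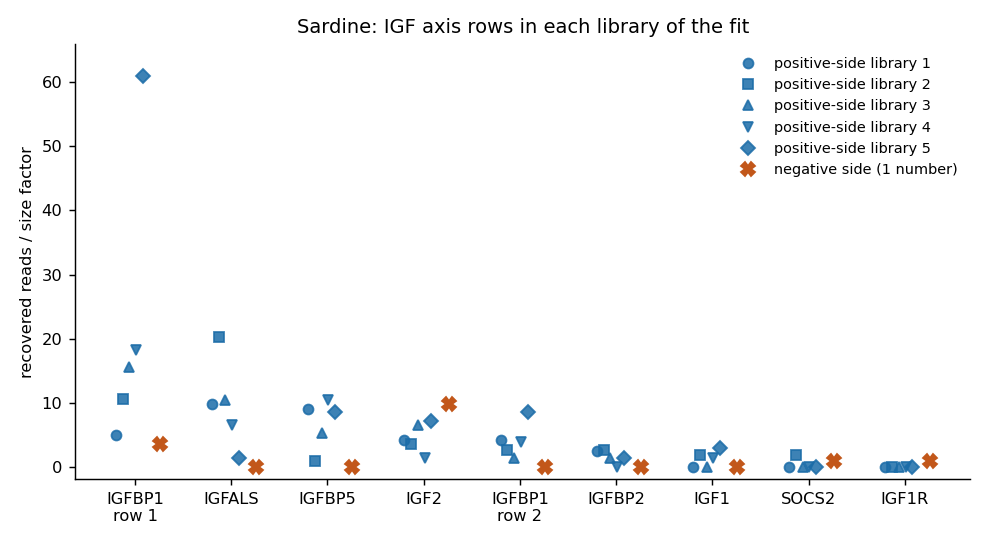
Recovered reads divided by the size factor (linear axis) for the 9 sardine member rows, with 1 blue mark per positive-side library and 1 orange cross for the negative side. All 5 libraries stand above the cross in both IGFBP1 rows, IGFALS and IGFBP5, all 5 stand below it in IGF2, and library 5 of the first IGFBP1 row stands apart at 61.0.

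IGFBP5, a binding protein that attaches to extracellular matrix and is also made by muscle and bone, had 11, 1, 4, 8 and 6 reads in libraries 1 to 5 and 0 on the negative side. Scaled values ran from 0.877 to 10.4 with a median of 8.52, and all 5 libraries held reads. In the authors' deposited table the fold change was 6.93 ± 1.95 with an adjusted p of 0.00293. The exact test of the reads also called it, with an adjusted p of 0.0190 and 0.00526 to 0.0469 when any 1 library was left out. With the negative side at the floor of 3 counts, the positive side was 2.45-fold higher. The exact interval of the read ratio began lower, at 1.87. Its transcript is a curated zebrafish record (NM_205726.1), and of 423 curated rows with positive-side reads within 1.5 times of its 30, 22.7% likewise had no negative-side read.

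IGFALS, the partner that stabilizes the circulating IGF complex and a classical growth hormone target in mammals, had 12, 23, 8, 5 and 1 reads in libraries 1 to 5 and 0 on the negative side. The libraries spread widely, from 1.42 to 20.2 scaled reads, and every one held reads. Against a side at 0 any library with a read lies above it. The authors' deposited table gave 7.43 ± 1.94 with an adjusted p of 0.00133. The exact adjusted p was 0.000713, and 0.000167 to 0.0113 with any 1 library left out. With the other side at that floor, its positive side was 4.01-fold higher, and the exact 95% interval of the ratio began at 3.14. This row, however, is a predicted record (XM_694274.2), and 95.1% of the 162 predicted messenger records of like depth had no negative-side read, whereas 20.2% of 243 curated ones had none.

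IGFBP2, the binding protein that is abundant in fish blood, showed the same record type (XM_001335453.2) at lower depth. It had 3, 3, 1, 0 and 1 reads in libraries 1 to 5 and 0 on the negative side, where 1.58 would be expected at equal levels. The authors' deposited table called it positive at an adjusted p of 0.0374, whereas the exact adjusted p was 0.499. No fold is given, since its 8 reads over 5 libraries do not exceed what the floor of 3 counts on the other side allows.

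Among the ligands, IGF2 was the one that the authors' deposited table called. IGF2 is the growth factor best known from fetal life in mammals, and in fishes the adult liver also makes it. It had 5, 4, 5, 1 and 5 reads in libraries 1 to 5 and 11 on the negative side, or 1.30 to 7.10 scaled reads against 9.74. All 5 libraries were below the negative side, as in 37.1% of all solved sardine rows, whereas all 5 were above it in 15.2%. The authors' deposited table gave -1.14 ± 0.49 with an adjusted p of 0.0456. The read ratio was 0.446 with an interval of 0.204 to 1.03 that includes 1, and the exact adjusted p was 0.144.

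IGF1 itself was near the limit of detection in sardine, with 0, 2, 0, 1 and 2 reads in libraries 1 to 5 and 0 on the negative side. In the authors' deposited table its adjusted p was 0.0869. The receptor IGF1R had 1 read, on the negative side (adjusted p 0.0877 in the authors' deposited table), and is 1 of 519 sardine rows with those same read numbers. SOCS2, the brake on the growth hormone receptor, had 2 reads, both in library 2, and 1 on the negative side, with a ratio of 0.490 (0.0255 to 28.9). No difference in these 3 genes was detectable at this depth.

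The mackerel comparison asked the same of the second species, and there 1 of the 6 member rows with an adjusted p was called in the authors' deposited table, on the negative side. The background was 24.8% of all tested rows in either direction, 10.8% negative and 14.1% positive. The median fold change of the 9 member rows was -0.57, against 0.04 over all rows of the table. Of the 9 rows 8 were below 0, where 48.4% of all rows were, but 2 of the 8 rest on a single read each, which fixes the sign, and IGF1, at -0.06, had a ratio of 1.04 when scaled to total reads. The exact test of the reads called 0 of the 9 members at an adjusted p under 0.05 and 1 at an unadjusted p under 0.05, while it called 4.07% of all rows, 2.07% positive and 2% negative. Of the 9 rows 3, the pair for IGF1R and the second for IGFBP2, rested on a single read each and had no adjusted p.

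IGFALS was the best covered mackerel member (fugu gene ENSTRUG00000012060), with 56 positive-side and 69 negative-side reads. The ratio was 0.656 (0.453 to 0.948), and the exact p of 0.0194 became 0.293 after adjustment. Scaled to the total reads of each side instead, the ratio was 0.717 with an interval of 0.495 to 1.04, which includes 1. In the authors' deposited table the fold change was -0.57 ± 0.23 with an adjusted p of 0.0524, just outside the threshold. The counting error of these reads alone was 0.26 log2 units, more than the deposited SE.

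IGF1 was nearly as deep, with 66 positive-side and 56 negative-side reads. The ratio was 0.953 (0.658 to 1.39), and 1.04 when scaled to total reads, so its direction is not fixed. In the first scaling ratios under 0.658 or over 1.39 lay outside the counting interval. The spread between fish is not in that interval. The authors' deposited table gave -0.06 ± 0.23 with an adjusted p of 0.841. IGF1 and IGFALS together thus held 247 of the 286 member reads of the mackerel, and their rows stood above 95.5% and 95.6% of all rows in mean normalized count.

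The call on the negative side was the first IGFBP2 row (ENSTRUG00000013702), at -1.32 ± 0.38 with an adjusted p of 0.00462 in the authors' deposited table. It rested on 1 read against 5, a ratio of 0.162 with an interval of 0.00342 to 1.45 and an exact adjusted p of 0.730. The row shares its read numbers, and with them its fold change and p, with other rows of the table, being 1 of 19 with the same pair. The second IGFBP2 row had 0 reads against 1.

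**Figure D2:**
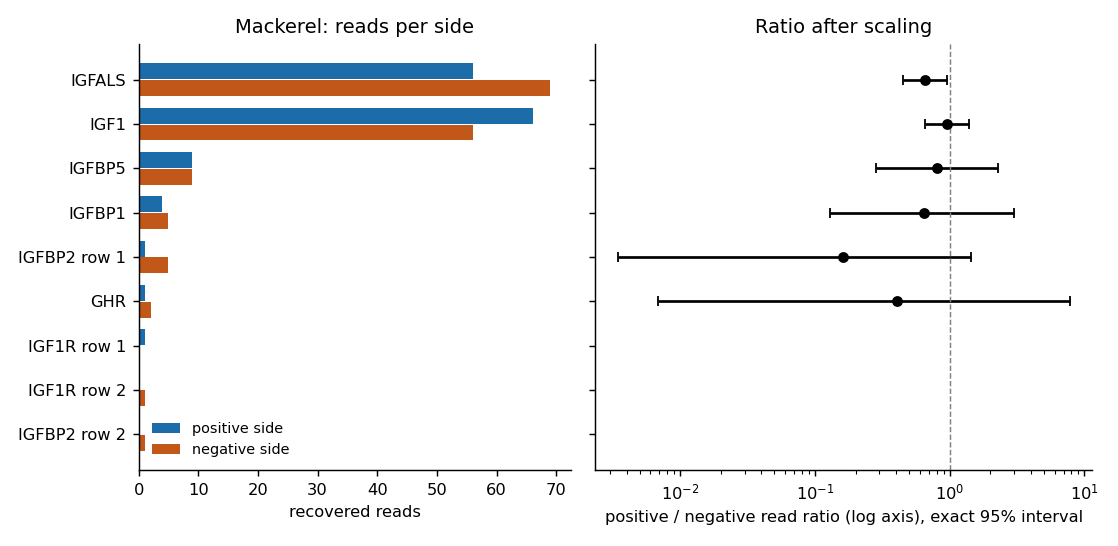
Recovered reads of the 9 mackerel member rows on each side (left, bars from 0) and the ratio of the 2 sides after scaling, with its exact 95% interval on a log axis (right, the 6 rows with reads on both sides). IGFALS and IGF1 are the 2 rows with more than 50 reads a side, and only the interval of IGFALS, 0.453 to 0.948, lies wholly on one side of 1, which it does not when scaled to total reads (0.495 to 1.04).

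The other mackerel binding proteins had wide intervals that include 1. IGFBP5 had 9 reads on each side and a ratio of 0.809 (0.284 to 2.30). IGFBP1 had 4 against 5 and 0.647 (0.128 to 3.01). For the growth hormone receptor GHR, 1 positive-side and 2 negative-side reads made a ratio of 0.404 (0.00686 to 7.77), which does not separate the sides. Their adjusted p in the authors' deposited table were 0.506, 0.291 and 0.291.

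**Figure D3:**
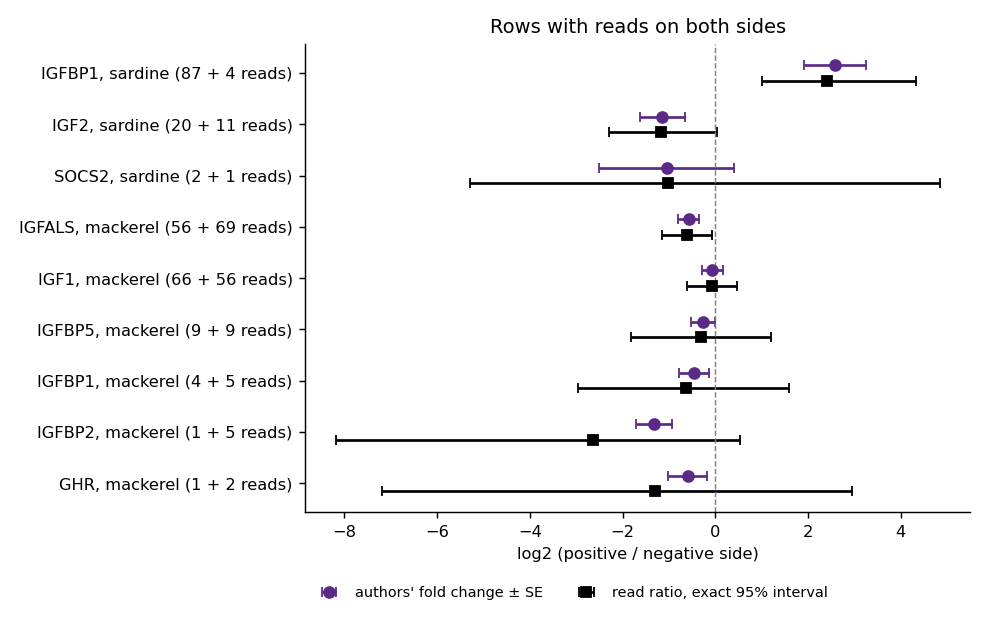
The 9 member rows of either species with reads on both sides: the authors' log2 fold change with its SE (purple) and the log2 ratio of recovered reads with its exact 95% interval (black), both as positive over negative side. The 2 estimates part most in mackerel IGFBP2, where the deposited -1.32 stands beside a read ratio of -2.63. They also part in mackerel GHR, at -0.596 beside -1.31. Mackerel means hold a constant of 1.66, which the read ratios leave out, and its part in these gaps was not tested. In sardine IGFBP1 the reads were chosen among 8 sets for their nearness to the deposited fold change, so that closeness is no result. In this scaling the intervals of sardine IGFBP1 and mackerel IGFALS leave out 0.

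Genes around the axis were taken from 3 lists of its signalling partners. In the growth hormone receptor list of 14 genes, 1 of 7 sardine rows was called positive and 0 negative in the authors' deposited table, and in mackerel 0 of 10 rows with an adjusted p were positive and 3 negative. These 1 of 7 and 3 of 10 called rows stand beside 46.5% of all tested sardine rows and 24.8% of all tested mackerel rows. The sardine call was SOCS3, another suppressor of cytokine receptors, with 12 reads against 0 (exact adjusted p 0.341). The mackerel calls were SOCS3 with 0 reads against 5, a JAK2 row with 1 against 7, and STAT5B, the transcription factor through which growth hormone drives IGF1, with 20 against 24 and an adjusted p of 0.0457 in the authors' deposited table. STAT5B gave an exact adjusted p of 0.976. The exact test called 0 of 5 sardine and 0 of 12 mackerel rows here, beside 15.9% and 4.07% of all rows it tested. At an unadjusted p under 0.05 the list held JAK2 and SOCS3, 2 mackerel rows.

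For IGF availability, 15 genes of other binding proteins, proteases and IGF mRNA-binding proteins, 1 of 5 sardine rows was called positive and 2 negative, and in mackerel 0 of 6 rows with an adjusted p were positive and 1 negative in the authors' deposited tables. Called rows were thus 3 of 5 and 1 of 6, where the background was 46.5% in sardine and 24.8% in mackerel, and rows this few do not separate from it. PCSK6, a convertase that cleaves growth factor precursors, had 111 reads against 0 in sardine on a predicted record and was the sole row of the list that the exact test called. That test covered 5 sardine and 7 mackerel rows of the list and called 15.9% and 4.07% of all rows it tested. The serine protease HTRA1, which cleaves IGF-binding proteins, had 1 read against 3 and IGF2BP3, an IGF2 mRNA-binding protein, 0 against 2 in sardine. The mackerel call was the binding protein IGFBP4 with 1 read against 6 and an exact adjusted p of 0.541.

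The insulin and IGF receptor list of 45 genes had 10 of 42 sardine rows called positive and 3 negative, and in mackerel, of the 25 rows that had an adjusted p, 0 were positive and 4 negative in the authors' deposited tables. The called share was 31.0% in sardine, below the 46.5% of all tested rows, and 16.0% in mackerel, below 24.8%. By the exact test 2 of 41 sardine rows were positive and 2 negative, beside 7.97% and 7.92% of all solved rows. In mackerel 0 of 38 rows were called, beside 4.07% of all rows, and 0 had an unadjusted p under 0.05. The adaptor GRB10, an inhibitor of insulin and IGF receptors, had 84 reads against 7 in sardine and 1.63 ± 0.51 in the authors' deposited table, with an exact adjusted p of 0.0194. The regulatory kinase subunit PIK3R1 had 39 reads against 0 on a predicted record (exact adjusted p 0.00447). On the other side the second regulatory subunit PIK3R2 and the GTPase HRAS had 0 reads against 3 each (exact adjusted p 0.0483 for both). A second HRAS row, on a predicted record, lay the other way with 6 reads against 0 (4.71 ± 2.16 and an adjusted p of 0.0660 in the authors' deposited table), so the gene as a whole has no one direction. GRB2, the adaptor toward Ras, was at -1.29 ± 0.46 in the authors' deposited table. Its 22 positive-side and 13 negative-side reads gave an exact adjusted p of 0.0886. A second GRB2 row, on a predicted record, lay the other way with 3 reads against 0 and was not called.

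The kinase PDPK1, on a predicted record too abundant for an exact read solution, stood at 9.14 ± 1.88 in the authors' deposited table with an estimated 0 reads on the negative side. A second, curated PDPK1 row had 0 reads against 1. AKT1 and the insulin receptor substrate IRS2, both on predicted records, had 12 and 11 positive-side reads against 0 and were called in the authors' deposited table but not by the exact test, at an adjusted p of 0.341 each. In mackerel the 4 called rows were RHEB, the activator of the growth kinase MTOR, in a pair of rows with 1 read against 6 and 2 against 6, GSK3B with 1 against 4 and RICTOR with 0 against 3. A second GSK3B row had 2 reads against 2 and was not called. Over the 3 lists, 17 of 54 sardine rows (31.5%) and 8 of 41 mackerel rows (19.5%) were called in the authors' deposited tables, both below the share over all tested rows (46.5% and 24.8%). By direction, 22.2% of the sardine rows were positive and 9.26% negative, beside 30.5% and 16.1% over all rows. All 8 mackerel calls were negative, 19.5% beside 10.8%, and 0 were positive beside 14.1%.

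**Figure D4:**
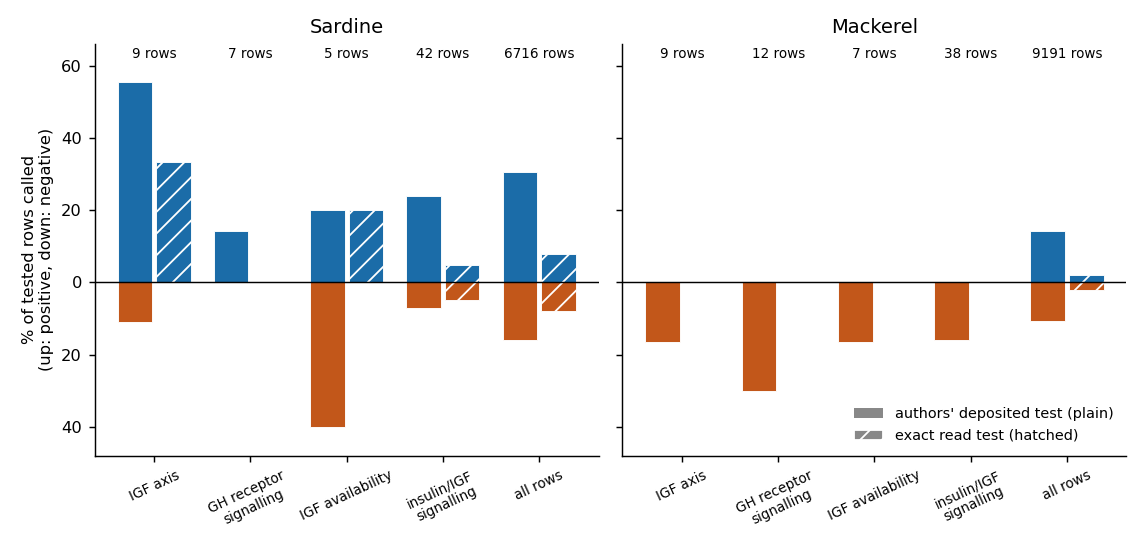
Share of tested rows called positive (blue, up) and negative (orange, down) for the IGF axis, the 3 lists and all rows, by the authors' deposited test (plain) and by the exact read test (hatched), with the number of rows above and only rows with an adjusted p in each share. The sardine IGF axis reaches 5 of 9 rows positive where all rows reach 30.5%, and the mackerel axis and lists have no hatched bar. Of those 5 rows all but the first IGFBP1 row have no negative-side read, and IGFALS and IGFBP2 are predicted records. Members and lists were chosen with earlier results of these data known.

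Markers of the liver's own cells and of muscle moved with the sardine comparison. Of 16 hepatocyte marker rows 15 were called positive and 0 negative in the authors' deposited table, with a summed level of 43200 positive-side and 8794 negative-side normalized counts, and 5 rows (AMBP, FGA, an APOB row and a pair for TTR) with an estimate of 0 on the negative side. Of 40 rows for skeletal or cardiac muscle 32 were called negative and 3 positive, at a summed level of 43.2 against 10310. That APOB row, the TTR pair and the 3 positive muscle rows are predicted records. At the members' depths 93.0% to 95.8% of predicted messenger records had no negative-side read, so a 0 there is common to the record type. The 8 endothelial and stellate calls among 9 tested rows were all negative, and leukocyte and erythrocyte markers had 2 negative calls each among 7 and 3 rows. Over all tested sardine rows 30.5% were called positive and 16.1% negative. In mackerel hepatocyte markers split, 4 of 15 tested rows positive and 4 negative (summed levels 44674 and 62199). Muscle markers had 1 positive and 2 negative calls among 14 tested rows at 26.4 against 60.8. Endothelial and stellate markers had 0 positive and 3 negative calls among 8 tested rows at 12.8 against 48.4. All 9 of their rows lay below 0, where 48.4% of all rows did. Those rows held 57 reads in all, and COL1A1 rows of the same fugu gene had 0 reads against 3, 2 and 1. The exact test called 1 of the 9, COL1A2 with 6 reads against 20. Over all tested mackerel rows 14.1% were called positive and 10.8% negative. IGFALS, IGFBP1 and IGFBP2 are largely hepatocyte products, and IGF2 and IGFBP5 are also made outside hepatocytes; the part of these cell types in the members' values was not tested.

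For the genes that both tables hold, values are set side by side without a comparison of direction, since the side that stands for exposure may differ between the tables. The positive-to-negative ratio of IGFBP1 (first sardine row) was 5.33 in sardine and 0.647 in mackerel. For IGFALS it was 4.01 and 0.656, and for IGFBP5 2.45 and 0.809. The sardine values of IGFALS and IGFBP5 set the negative side, which had no read, to the floor. Their exact intervals began at 3.14 and 1.87. The sardine IGFALS row is a predicted record, and 95.1% of predicted messenger records of like depth had no negative-side read. The mackerel intervals of IGFBP1 and IGFBP5 include 1, as does that of IGFALS when scaled to total reads. The difference between species was not tested. The members' reads were spread as follows: IGF1 took 122 of 286 member reads in mackerel and 5 of 236 in sardine, where IGFBP1 took 109. Sardine reads were counted on zebrafish transcripts and mackerel reads on fugu gene models, so levels of a gene cannot be compared between the tables.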

How the data were processed

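The members and lists were chosen with earlier results of these data known. Liver RNA was made into TruSeq libraries, per the labels' protocols. The submitters' processing notes name CASAVA 1.8, GRCz10 (a zebrafish build) and DESeq2, which the authors ran. Which aligner, counter and filters came before it is not given in the sources used here. Each deposited row holds, per the file headers, a mean normalized count, which is a signal averaged over libraries. Beside it the authors give the log2 fold change with its SE on the log2 scale. The authors' test is deposited as a score, the Wald statistic, and as a p-value before and after adjustment. The adjusted p was used as deposited; the top row's adjusted p was 12737 times its raw p in sardine and 7048 times in mackerel, more than the deposited rows with an adjusted p (6600 and 6319).

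Whole reads were recovered from the means. In mackerel each mean was 0.455 times the positive-side plus 0.563 times the negative-side reads plus a constant of 1.66, whose origin is not given; all 9191 rows were solved within 5e-06. Recovered reads summed to 376343 and 332486, a median of 4 a row. In sardine all 5123 rows with a mean up to 5 had 1 solution within 3e-09, and 801 of 857 rows up to 15 had 1 whose ratio was within 0.2 log2 units of the deposited fold change. For the first IGFBP1 row 8 sets of reads matched the mean and 1 also the fold change; for IGF2 1 set matched. Solved sardine rows held 10553 to 18481 reads per positive-side library and 14393 on the negative side. The exact test set the reads against a positive-side share of 80.3% in sardine and 55.3% in mackerel, from the size factors. Scripts (Python 3.11.15, scipy 1.17.1) were tested on simulated data, where every read set was recovered but the exact test found few of the changed rows, in sardine fewest. The simulated sardine rows had means up to 5. The search above that mean, which gave the reads of the first IGFBP1 row and of IGF2, was not tested. Without molecular identifiers, PCR copies count as separate reads. Rows named in the lists were all those called in the deposited table, at most 8 a list and species by mean. Alternatives were thresholds, filters, scaling and left-out libraries. No reference genome was used here, and no sequences are shown.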

Additional observations from a re-analysis of the deposited data

Results flagged for a closer look

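In sardine, the first IGFBP1 row (NM_173283.3) had 1 library apart from the other positive-side libraries: library 5 stood at 61.0 scaled reads and the next at 18.3, a gap of 0.762 of the whole range where 0.71 is the critical value for 5 libraries. Of the member rows, the 7 with at least 5 positive-side reads were examined. For normally distributed values chance alone puts about 1 in 20 rows past that value. Over 7 rows the chance of at least 1 is higher, and small read counts need not be normal. The labels do not say which fish the library is, and the cause was not tested.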

How the results depend on the processing

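No paired analysis was possible because the tables hold no columns of single fish, and for the same reason no fish could be left out of the deposited tests. The 6 sardine member calls among 9 rows numbered 1 of 1 row with a mean of at least 10. Where both sides had reads they numbered 2 of 3 rows, and on curated records 4 of 7 (3 positive, 1 negative). By the exact test of the reads they numbered 3 of 9, beside 15.9% of all solved rows. That test without 1 positive-side library each, an alternative chosen after seeing the data, gave 2 to 3. The 17 sardine list calls among 54 rows, 12 positive and 5 negative, numbered 37 at an adjusted p under 0.1 and 4 under 0.01. They numbered 3 of 5 rows at a mean of at least 10 and 3 of 20 where both sides had reads (1 positive, 2 negative). Curated records held 9 of 36 (4 positive, 5 negative). The exact test, also chosen after seeing the data, gave 5 of 51 (3 positive, 2 negative), beside 15.9% of all solved rows. The single mackerel member call became 2 at an adjusted p under 0.1 and 0 of 3 rows at a mean of at least 10. By the exact test, which called 4.07% of all mackerel rows, it became 0. Of the 9 rows 1, IGFALS, had an unadjusted exact p under 0.05. The 8 mackerel list calls became 15 under 0.1, 5 under 0.01 and 1 of 6 rows at a mean of at least 10. By the exact test they became 0 of 57, beside 4.07% of all mackerel rows, with 2 at an unadjusted p under 0.05. Centring on the median of all sardine rows (-0.19) or of those with a mean of at least 10 (0.76) changed no sign of a called member, with IGFBP1 at 1.83 and IGF2 at -1.90 under the latter. The causes were not tested, beyond smaller row sets giving fewer calls. Here shares over all rows are given for the exact test alone, so the other shifts are not read as particular to the axis. Depth limits most members: 10 of the 18 rows rested on fewer than 10 reads.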
